A study of Mus musculus with 3 samples.

Results

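The autophagy machinery is the set of genes whose products build the autophagosome, load it with cargo and control that supply. Its 36 members were chosen by gene name, with earlier results of these data known but by a rule that uses no measured value, from 54532 genes in a table of hippocampal RNA levels, and all 36 were found there once each as protein-coding genes. Hippocampal RNA of 10-month-old mice on a C57BL/6 background was sequenced in 3 libraries, 1 per genotype. The genotypes were wild type (WT), PS19, and PS19 with a heterozygous loss of Zbp1 (labelled Zbp1+- and written PS19 Zbp1+/- here). PS19 mice, a model of tauopathy, express mutant human tau from a transgene driven by the Prnp promoter, and PS19 Zbp1+/- mice carry that transgene too. ZBP1 is a sensor of Z-form nucleic acids, and the design asks how its dosage bears on the PS19 hippocampus. Whether a library holds RNA of 1 animal or of a pool is not given in the sources used here. With 1 library per genotype no difference below has a replicate check, and each describes these libraries and not the genotypes. Values listed as a triple are in the order WT, PS19, PS19 Zbp1+/-.

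In macroautophagy a kinase complex around ULK1 responds to nutrient and stress signals and starts a membrane, the phagophore, which a lipid kinase complex marks with phosphatidylinositol 3-phosphate (PI3P). ATG9 and ATG2 proteins supply its lipids, ubiquitin-like enzymes attach LC3 and GABARAP proteins (the Atg8 family) to it, and cargo receptors bind both the cargo and these proteins. The closed autophagosome then fuses with the lysosome. Neurons depend on this route for the turnover of aggregated proteins, tau among them, and much of it is regulated after transcription, so that RNA levels do not measure its flux.

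The libraries held between 16400328 and 17109734 reads, recovered as whole numbers from the deposited FPKM values (fragments per kilobase of gene and unit of library size). Zbp1, the targeted gene, had 5, 91 and 0 reads. The 0 reads, a count that allows up to 3, do not show the intermediate level that a heterozygous label implies, so PS19 Zbp1+/- means the library labelled so throughout. Mouse Mapt had FPKM values of 63.0, 65.1 and 65.3, and the human transgene was not analysed here. Xist had 11062, 13350 and 0 reads, and 4 genes of the Y chromosome (Uty, Kdm5d, Ddx3y and Eif2s3y) had 268 to 711 reads in PS19 Zbp1+/- and none in the other libraries, so genotype and sex cannot be told apart in either comparison of PS19 Zbp1+/-. All 8 neuronal markers (summed FPKM 1000, 859 and 1270), all 8 of astrocytes (615, 1500 and 720), of oligodendrocytes (897, 1610 and 584) and of microglia (126, 399 and 130) had reads in every library. The 6 choroid plexus markers summed to 3110, 1900 and 10.5. In bulk RNA fewer cells of a type and less RNA per cell cannot be told apart.

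TFEB, the last member by role, is a transcription factor that reads the CLEAR element in promoters of lysosome and autophagy genes. Its core, TCACGTG, holds the E-box CACGTG and was searched on both strands from 250 bases before to 50 after each RefSeq start site (GRCm38.p6), where 30 of the 36 members matched by symbol with 36 promoters. The core was in 3 of these 36 promoters (8.33%), against 3.77% of all 32851 promoters, and the E-box in 4 (11.1%, against 7.15%). The promoters that hold the core are shown so that its place can be read beside the values of Atg7, Atg3 and Atg14 and of Tfeb further on. Each runs from 150 bases before to 30 after the start site, 5′ to 3′, with matches to TCACGTG or its reverse complement CACGTGA in capitals.
Atg7 (chr6:114670946-114671125, plus strand): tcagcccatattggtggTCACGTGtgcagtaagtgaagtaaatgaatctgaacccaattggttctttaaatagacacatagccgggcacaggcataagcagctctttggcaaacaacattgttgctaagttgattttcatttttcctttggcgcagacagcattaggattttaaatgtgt
Atg3 (chr16:45158679-45158858, plus strand): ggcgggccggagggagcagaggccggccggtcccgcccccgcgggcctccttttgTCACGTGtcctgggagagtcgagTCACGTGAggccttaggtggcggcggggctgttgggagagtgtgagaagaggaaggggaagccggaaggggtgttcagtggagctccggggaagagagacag
Atg14 (chr14:47568405-47568584, minus strand): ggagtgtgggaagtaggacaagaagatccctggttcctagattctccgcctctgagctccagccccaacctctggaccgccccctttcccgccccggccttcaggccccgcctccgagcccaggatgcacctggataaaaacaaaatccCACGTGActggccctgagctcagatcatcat
Atg3 held 2 E-box sites, of which the second matched the core on both strands, and its start site lay 44 bases inside the gene as the table places it. The Atg7 and Atg14 start sites lay 27999 and 2215 bases inside theirs. Atg5 held the E-box without the core. A match is a description of letters and shows no binding.

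The members spanned a wide range of FPKM values. FPKM is taken per gene length as deposited, so ranks and shares between genes depend on that length. Map1lc3b, with a length of 7517 bases, had 3582 reads in WT and an FPKM of 27.6. Map1lc3a, with 1181 bases, had fewer reads (2513) but an FPKM of 123. The members' median FPKM was 10.2, 10.3 and 11.6, against 7.31, 7.08 and 7.59 for all protein-coding genes that reached an FPKM of 1. The highest was Gabarapl1 in every library (192, 157 and 226). The lowest was Atg4a in WT (2.16) and PS19 Zbp1+/- (1.19) and Atg10 in PS19 (2.93). In each library the Atg8 family of 5 genes made up 51.2%, 47.7% and 50.8% of the summed FPKM of all members. Reads per member ran from 50 (Atg4a in PS19 Zbp1+/-) to 8217 (Sqstm1 in WT).

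**Figure D1:**
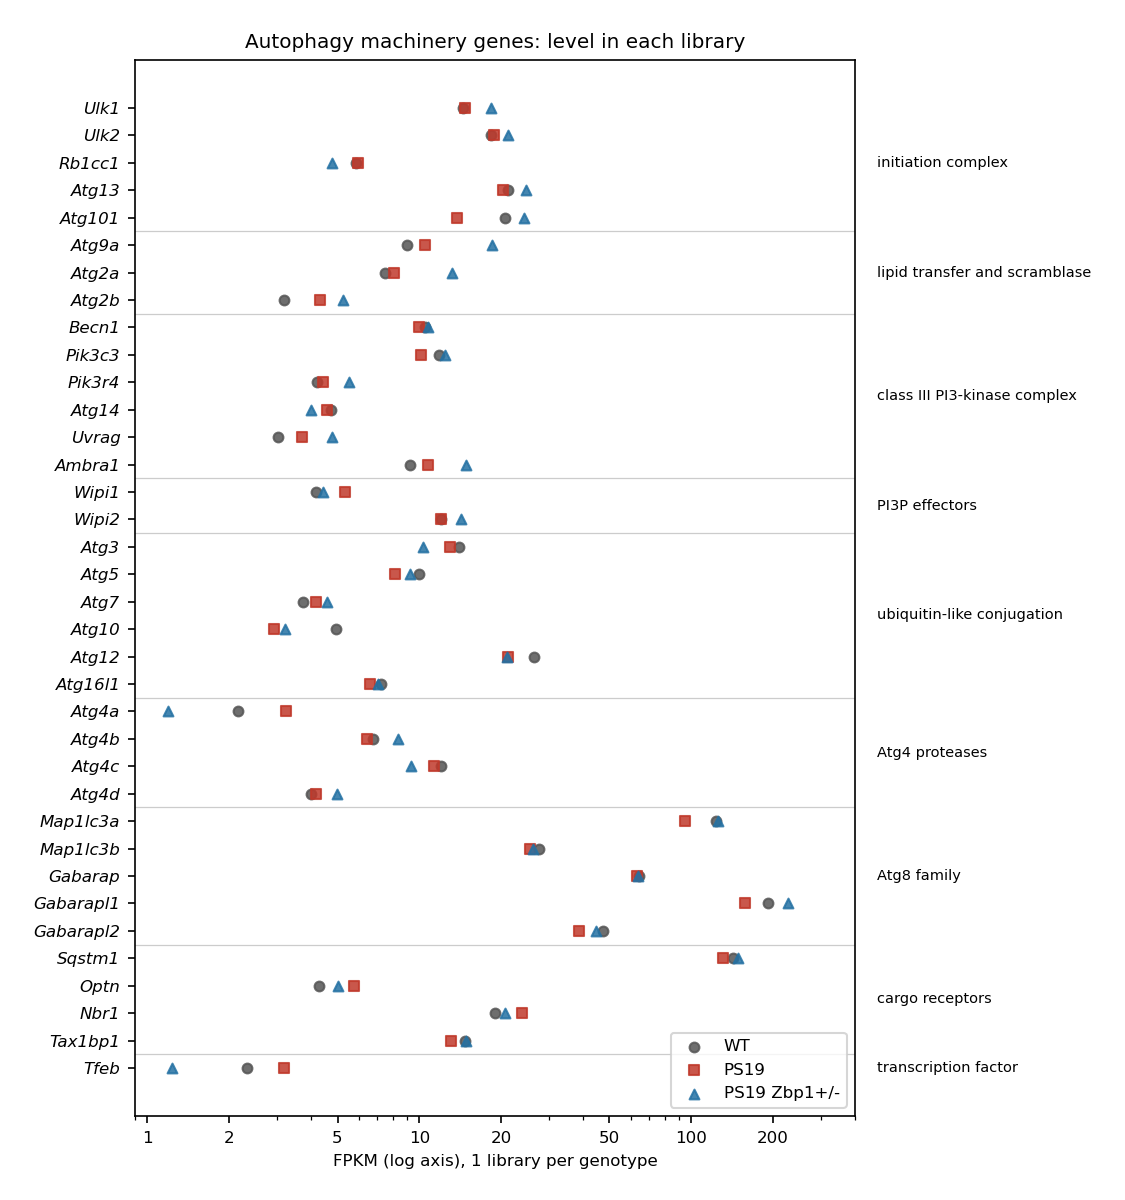
FPKM (log axis) of each of the 36 genes in the WT (circle), PS19 (square) and PS19 Zbp1+/- (triangle) library, 1 library per genotype and no error bars, grouped by role. Gabarapl1 is the highest gene in every library, and the widest spreads among the low genes are those of Atg4a (2.16, 3.24 and 1.19) and Tfeb (2.33, 3.17 and 1.23).

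Between PS19 and WT most autophagy machinery genes lay close together. Differences were taken on the log2(FPKM + 1) scale, and a gene was called where its difference reached 0.32 log2 units in either direction. Of the 36 members, 5 were called higher in PS19 (13.9%), namely Atg4a, Atg2b, Optn, Tfeb and Nbr1, beside 14.8% of all 12703 genes tested. Called lower were 3 (8.33%), namely Atg10, Atg101 and Map1lc3a, beside 14.5% of all genes. The share called higher was near the background and the share called lower was under it. On that scale a 1.5-fold difference was reached by no higher member (6.34% of all genes) and by 1 lower member, Atg10 (2.71%). No member reached 2-fold (2.20% higher and 0.291% lower of all genes). The median difference of the members was -0.033 and that of all genes -0.026, and with all libraries scaled to an equal FPKM sum (TPM) these were 0.090 and 0.085.

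Between PS19 Zbp1+/- and PS19, 7 members were called higher in PS19 Zbp1+/- (19.4%), beside 24.2% of all 12772 genes tested: Atg101, Atg9a, Atg2a, Gabarapl1, Ambra1, Map1lc3a and Atg4b. Tfeb and Atg4a were called lower (5.56%), beside 22.7% of all genes. At 1.5-fold Atg101, Atg9a and Atg2a were higher (3 members, beside 9.37% of all genes) and Tfeb and Atg4a lower (2 members, beside 12.1%). At 2-fold none was on the log2(FPKM + 1) scale (2.0% and 5.16% of all genes). The pseudocount shrinks differences of low genes: as ratios of reads per library size Atg4a was at 0.367 and Tfeb at 0.386 of PS19. The median difference was 0.17, against 0.041 over all genes. TPM scaling moved these to -0.10 and -0.21 and scaling by total reads to -0.0081 and -0.12, so that the sign of the members' median depended on the scaling. Under TPM scaling 3 of the 36 members were called higher (beside 9.72% of all genes) and 9 lower (beside 39.5%). Scaling by total reads gave 4 higher (beside 13.8%) and 7 lower (beside 32.8%). Map1lc3a, Ambra1 and Atg4b lost their call under both scalings and under correction for GC content and length, and Gabarapl1 under TPM scaling. That correction newly called Gabarapl2, Tax1bp1 and Atg10 higher.

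Between PS19 Zbp1+/- and WT, 6 members were called higher (16.7%, beside 20.4% of 12436 genes), namely Atg9a, Atg2a, Ambra1, Atg2b, Uvrag and Ulk1. Lower were 5 (13.9%, beside 18.0%), namely Tfeb, Atg4a, Atg10, Atg3 and Atg4c. On the log2(FPKM + 1) scale Atg9a, Atg2a, Ambra1 and Atg2b were higher at 1.5-fold (4 members, beside 6.71%) and no member lower (7.12%). At 2-fold there was none in either direction (1.07% and 2.28%). As ratios of reads per library size, without the pseudocount, Atg9a was at 2.06 and Uvrag at 1.59 of WT. Tfeb, Atg4a and Atg10 were at 0.526, 0.551 and 0.650. The median was 0.068, against 0.010 over all genes, and became -0.068 and -0.066 under TPM scaling and scaling by total reads, where all genes were at -0.13 in each. Each library enters 2 of the 3 comparisons, which are therefore not independent of each other.

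A list of 28 lysosome genes, whose products receive what autophagosomes deliver, was called more often than the members in both comparisons that contain PS19. In PS19 against WT 18 of the 28 lysosome genes were called higher (64.3%, beside 14.8% of all genes) and 2 lower, with a median of 0.44. Among the higher genes were Cd68 and the microglial protease gene Ctss (FPKM 36.2, 175 and 25.5). In PS19 Zbp1+/- against PS19, 3 were higher and 17 lower (60.7%, beside 22.7% of all genes), with a median of -0.49. Between PS19 Zbp1+/- and WT 3 were higher and 6 lower, with a median of 0.021. These were 10.7% and 21.4%, beside 16.7% and 13.9% of the members and 20.4% and 18.0% of all genes. The difference between the lists has no test with 1 library per genotype. The 8 microglia markers had medians of 1.33 and -1.04 in the same comparisons, and their part in the lysosome result was not tested.

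**Figure D2:**
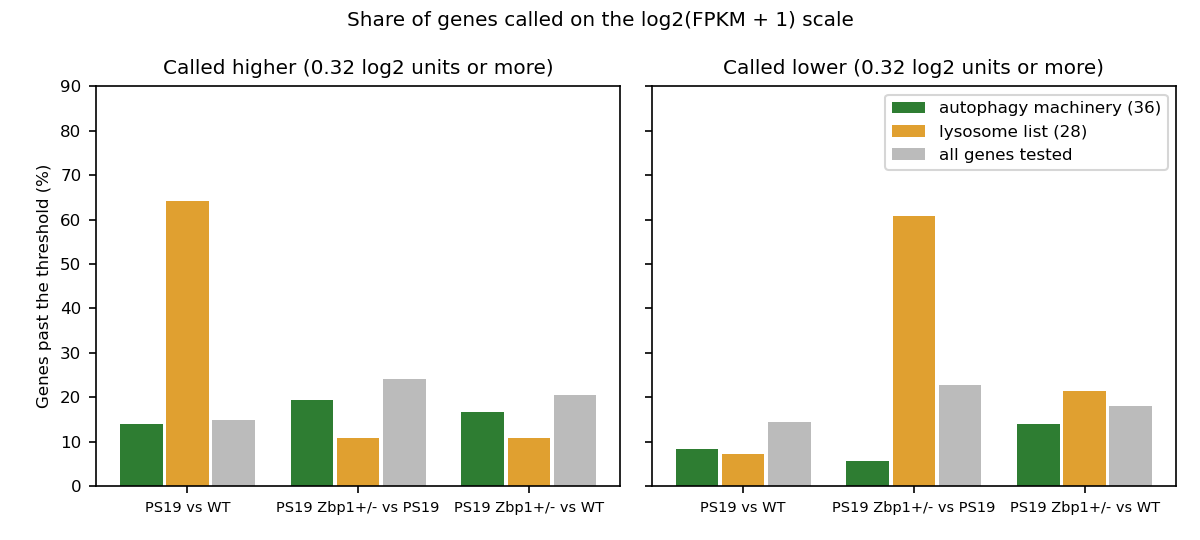
Percent of genes called higher (left) or lower (right) by 0.32 log2 units or more on the log2(FPKM + 1) scale in the 36 autophagy machinery genes, the 28 genes of the lysosome list and all genes tested, for each pair of libraries. The autophagy bars lie below the bars of all genes in all 6 places, and the lysosome bars reach 64.3% higher in PS19 against WT and 60.7% lower in PS19 Zbp1+/- against PS19.

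Counting error alone was small beside many of these differences, which are given from here on as ratios of reads per library size with exact (Clopper-Pearson) 95% intervals. Without molecular identifiers reads can repeat a molecule, so the intervals cover counting error alone, and they compare libraries, not genotypes. For PS19 over WT the interval lay above 1 for 9 members (25.0%, beside 28.3% of all genes tested) and below 1 for 12 (33.3%, beside 32.7%). For PS19 Zbp1+/- over PS19 it lay above 1 for 19 members (52.8%, beside 39.0%) and below 1 for 7 (19.4%, beside 32.6%). For PS19 Zbp1+/- over WT the counts were 17 (47.2%, beside 35.3%) and 9 (25.0%, beside 31.3%). These counts rest on the library sizes implied by the deposited values and depend on that scaling. Under TPM scaling the differences of 10 members changed sign for PS19 minus WT, 16 for PS19 Zbp1+/- minus PS19 and 7 for PS19 Zbp1+/- minus WT. Under scaling by total reads 2, 10 and 7 did. Ratios of PS19 over WT ran from 0.595 (Atg10) to 1.5 (Atg4a), and those of PS19 Zbp1+/- over PS19 from 0.367 (Atg4a) to 1.76 (Atg9a).

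**Figure D3:**
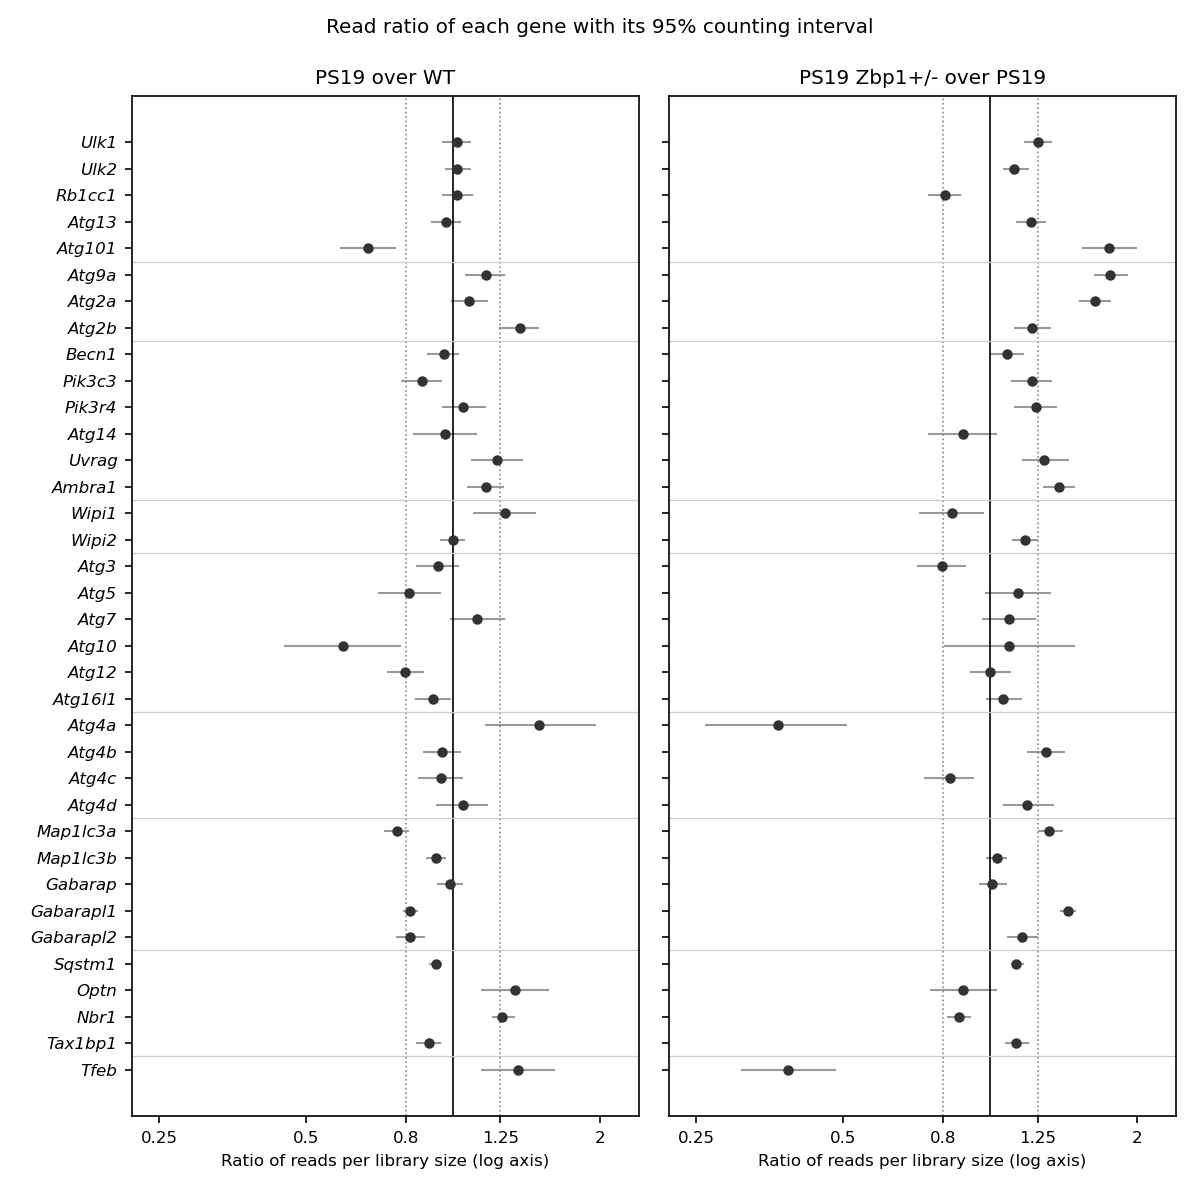
Ratio of reads per library size (log axis) of each of the 36 genes for PS19 over WT (left) and PS19 Zbp1+/- over PS19 (right), with exact 95% intervals that cover counting error only. Dotted lines mark the fold of the call. On the left 26 genes lie between the dotted lines and on the right 24, and on the right Atg4a (0.367) and Tfeb (0.386) stand far below the other genes.

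The initiation complex holds the kinases ULK1 and ULK2, the scaffold FIP200 (encoded by Rb1cc1) and the regulatory pair ATG13 and ATG101. Of its 5 genes only Atg101, which stabilises ATG13, was called between PS19 and WT under the settings as given. Atg101 (chr15) had FPKM values of 20.7, 13.8 and 24.3 from 570, 382 and 613 reads. PS19 was the low library, at 0.669 of WT (0.586 to 0.763), and PS19 Zbp1+/- was 1.75-fold above PS19 (1.54 to 2.0) and 1.17-fold above WT (1.04 to 1.32). Under every setting tried on it Atg101 kept both calls against PS19, at -0.39 to -0.58 and 0.50 to 0.81 log2 units.

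The other initiation genes were level between WT and PS19. Ulk1 had 14.5, 14.7 and 18.4 FPKM, Ulk2 18.4, 18.8 and 21.2, and Atg13 21.1, 20.3 and 24.6. Each of these was highest in the PS19 Zbp1+/- library, with ratios over PS19 of at least 1.12, but Ulk2 changed sign there under TPM scaling and scaling by total reads and Atg13 under TPM scaling. Rb1cc1 was lowest in that library, at 5.83, 5.94 and 4.79 FPKM, 0.806 of PS19 in PS19 Zbp1+/- (0.745 to 0.871). Correction for GC content and length took this difference from -0.26 to -0.032 log2 units, and the call of Ulk1 over WT from 0.33 to -0.017.

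The lipid supply genes gave the highest ratios of the PS19 Zbp1+/- library over WT before correction for GC content and length. ATG9A is the lipid scramblase in the membrane of the seed vesicles, and ATG2A and ATG2B are the bridges through which lipid flows into the phagophore. Atg9a (chr1) had FPKM values of 8.98, 10.5 and 18.5 from 893, 1043 and 1685 reads, and Atg2a (chr19) 7.47, 8.07 and 13.2. PS19 Zbp1+/- stood apart from both other libraries for these genes, at 1.76-fold over PS19 for Atg9a (1.63 to 1.91) and 1.64-fold for Atg2a (1.52 to 1.77), and at 2.06-fold (1.90 to 2.23) and 1.77-fold (1.64 to 1.92) over WT.
Atg2b (chr12) had 3.17, 4.32 and 5.26 FPKM, and was called higher in PS19 than in WT, at 1.37-fold (1.24 to 1.5). Correction for GC content and length took that difference from 0.35 to 0.15 log2 units, under the threshold. The same correction took Atg9a from 0.76 to 0.52 and Atg2a from 0.65 to 0.33 in PS19 Zbp1+/- against PS19, where both stayed called. Against WT it took Atg9a from 0.96 to 0.71, Atg2a from 0.75 to 0.33 and Atg2b from 0.59 to 0.31, under the threshold, with Gabarapl1 then at 0.39. In PS19 Zbp1+/- against PS19 Atg2b was at -0.0018 under TPM scaling. Ankzf1, on the other strand over part of Atg9a, had 453, 485 and 474 reads, and Gskip over Atg2b 697, 509 and 560. Whether the authors' counting used strand is not given in the sources used here.

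The class III PI3-kinase complex makes the PI3P that recruits later factors. Of its core genes, Becn1 had FPKM values of 10.5, 9.99 and 10.8, Pik3c3, the catalytic subunit, 11.8, 10.1 and 12.4, and Pik3r4 4.22, 4.44 and 5.51. The ratios of PS19 over WT were 0.956, 0.863 and 1.05 in that order, and none of these genes was called in any comparison under the settings as given. Pik3r4 in PS19 Zbp1+/- was at 1.31 of WT (1.18 to 1.44), and was called there with a pseudocount of 0.1 or 0.5 or none, but lay at 0.042 log2 units once corrected for GC content and length.
The other subunits set the complex's place and use. Atg14, which directs it to the phagophore, had 4.75, 4.56 and 4.01 FPKM and was not called under the settings as given. In PS19 Zbp1+/- it was called lower against PS19 under TPM scaling (-0.38). Against WT it was called lower under TPM scaling and scaling by total reads (-0.32 in each). Uvrag, which replaces ATG14 in the endosomal form, had 3.02, 3.71 and 4.79, and Ambra1, a positive regulator of Beclin 1, 9.26, 10.8 and 14.9. In both of these PS19 lay between the other libraries. Over WT, PS19 Zbp1+/- was at 1.59 for Uvrag (1.41 to 1.79) and 1.61 for Ambra1 (1.48 to 1.75), and correction for GC content and length took these calls to 0.25 and 0.27 log2 units, under the threshold.
The PI3P readers, which recruit the conjugation machinery, were not called in any comparison under those settings. Wipi1 had 4.17, 5.31 and 4.43 FPKM, and PS19 was at 1.28 of WT (1.1 to 1.48), which the pseudocount kept under the threshold. Wipi2 had 12.0, 12.0 and 14.2.

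The ubiquitin-like conjugation genes were lower in PS19 than in WT for 5 of 6, with a median of -0.19 log2 units beside -0.026 for all genes, of which 6816 of 12703 were below 0. Only Atg10 was called, and Atg3 changed sign under TPM scaling and under correction for GC content and length. The 8 neuronal markers had a median of -0.18 in the same comparison, and their part in these values was not tested. Atg10, the E2-like enzyme that joins ATG12 to ATG5, had the largest difference: its FPKM values were 4.93, 2.93 and 3.20 from 146, 87 and 87 reads. WT was the high library, and PS19 was at 0.595 of it (0.451 to 0.781) and PS19 Zbp1+/- at 0.650 (0.492 to 0.853). Correction for GC content and length took the latter from -0.50 to -0.17 log2 units, under the threshold, and put PS19 Zbp1+/- 0.34 above PS19, past it. With so few reads the PS19 and PS19 Zbp1+/- values could not be told apart (ratio 1.09, 0.802 to 1.49).
Atg12, the ubiquitin-like protein itself, had 26.4, 21.1 and 21 FPKM, the same order with WT high, at 0.798 of WT in each of the others and just under the threshold. Atg5 had 9.98, 8.12 and 9.24 and Atg16l1, which carries the conjugate to the membrane, 7.25, 6.60 and 7.02.
Atg7, the E1-like enzyme of both conjugation branches, was the exception, at 3.73, 4.18 and 4.56 FPKM and lowest in WT, though its differences from WT turned negative after correction for GC content and length. Atg3, the E2-like enzyme that attaches LC3 to lipid, had 14.0, 13.0 and 10.3. PS19 Zbp1+/- was low here, at 0.739 of WT (0.659 to 0.827), a call that correction for GC content and length took from -0.40 to -0.075 log2 units. Of the genes with the CLEAR core, Atg7 was thus highest in PS19 Zbp1+/- and Atg3 and Atg14 lowest there. Against PS19 the intervals of Atg7 (ratio 1.09, 0.962 to 1.24) and Atg14 (ratio 0.878) held 1, within counting error. That of Atg3 did not (0.795, 0.708 to 0.891), nor did any of the 3 against WT. Atg7 changed sign against PS19 under TPM scaling (-0.13) and scaling by total reads (-0.052). After correction for GC content and length all 3 were lowest in PS19 Zbp1+/-, with Atg7 at -0.055 against WT and -0.017 against PS19.

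The ATG4 proteases trim Atg8 proteins before conjugation and release them afterwards. Atg4b, the main LC3 protease, had 6.76, 6.42 and 8.35 FPKM, Atg4c 12.0, 11.3 and 9.35, and Atg4d 3.98, 4.16 and 4.97. These 3 were level between WT and PS19, with ratios of 0.949, 0.945 and 1.05. In PS19 Zbp1+/- Atg4b was 1.30-fold above PS19 (1.19 to 1.42) and Atg4c at 0.779 of WT (0.693 to 0.876), and each call was lost after correction for GC content and length. Atg4a (chrX) differed more than any other protease gene, at 2.16, 3.24 and 1.19 FPKM from 99, 149 and 50 reads. PS19 was highest and PS19 Zbp1+/- lowest, at 1.5 times WT in PS19 (1.16 to 1.96) and 0.367 of PS19 in PS19 Zbp1+/- (0.261 to 0.508), and both differences stayed called under every setting tried on this gene, at 0.43 to 0.59 and -0.80 to -1.45 log2 units.
Atg4b thereby had 3.14 times the FPKM of Atg4a in WT, 1.98 times in PS19 and 7.03 times in PS19 Zbp1+/-. Atg4a-ps, a copy at 99.3% identity over 2115 bases, had 0, 3 and 3 reads. The X-linked genes tested had a median of 0.061 in PS19 Zbp1+/- against PS19, near that of all genes. The neighbours of Atg4a, chosen after values were seen, differed among themselves. Psmd10, 179 bases away, had 8.52, 7.84 and 8.17 FPKM and Mid2 3.59, 3.42 and 3.24, while Col4a5 (1.48, 2.08 and 0.480) and Tsc22d3 (25.8, 27.3 and 8.11), 311115 and 356248 bases away, had the order of Atg4a.

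The Atg8 family was lower in PS19 than in WT for all 5 genes under the settings as given, with a median of -0.29 log2 units. That of all genes was -0.026, and that of genes with a mean FPKM of at least 5 was -0.084. Gabarap and Map1lc3b changed sign under TPM scaling. Gabarap did so also under scaling by total reads, centring on all genes, and correction for GC content and length. That correction took Gabarapl1 from -0.29 to -0.11, Gabarapl2 from -0.29 to -0.14 and Map1lc3b from -0.11 to -0.31. The LC3 genes encode the classic autophagosome marks, and the GABARAP genes their relatives that act later in closure and fusion. Map1lc3a (chr2) had FPKM values of 123, 94.5 and 125 from 2513, 1930 and 2341 reads. PS19 was the low library by a ratio of 0.766 to WT (0.722 to 0.814), while PS19 Zbp1+/- was level with WT at 1.02 (0.960 to 1.07). This was the family's only call between PS19 and WT, and TPM scaling (-0.25) and correction for GC content and length (-0.12) took it under the threshold.
Gabarapl1 (chr6), the highest of all members by FPKM, had 192, 157 and 226 FPKM from 6662, 5453 and 7207 reads. PS19 was again lowest, at 0.817 of WT (0.788 to 0.847), just short of the call, and PS19 Zbp1+/- was 1.44-fold above PS19 (1.39 to 1.5), which TPM scaling took from 0.53 to 0.24 log2 units. Gabarapl2 was also lowest in PS19, with 47.2, 38.6 and 44.8 FPKM and the same ratio of 0.817 to WT, but highest in WT.
Gabarap was level at 64.2, 63.3 and 63.9, with ratios of 0.986 and 1.01, and Map1lc3b had 27.6, 25.5 and 26.2. The family's summed FPKM was 454, 379 and 486, and Gabarapl1 made up 42.2%, 41.4% and 46.5% of it and Gabarap 14.1%, 16.7% and 13.1%. Beside this, the 8 neuronal markers had a median of -0.18 in PS19 against WT and 0.43 in PS19 Zbp1+/- against PS19. The 6 markers of hippocampal pyramidal and granule neurons had -0.47 and -0.15, with 3 called lower in the latter, and the part of either list in the Atg8 values was not tested. Map1lc3b and Gabarapl2 have processed pseudogenes at over 90% identity, of which the highest, Gm6055, had 72, 70 and 51 reads beside 3582, 3311 and 3117 of Map1lc3b. Zcchc14, on the other strand over part of Map1lc3b, had 1999, 2078 and 2505 reads.

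The cargo receptors bind ubiquitinated cargo and Atg8 proteins together, and p62 (encoded by Sqstm1) is itself degraded with its cargo. Sqstm1 was the second highest member by FPKM in WT, with FPKM values of 142, 131 and 148 from 8217, 7579 and 7868 reads, and was not called. PS19 was its lowest library, at 0.921 of WT (0.892 to 0.95). Tax1bp1 had 14.7, 13.1 and 14.8 FPKM, also lowest in PS19. These orders depended on the scaling: under TPM scaling and scaling by total reads PS19 lay above PS19 Zbp1+/- for both genes, and Sqstm1 in PS19 was at 0.0088 over WT under TPM scaling.
Optn and Nbr1 ran the other way, highest in PS19. Optn, the optineurin receptor also used in mitophagy, had 4.28, 5.73 and 5.03 FPKM from 277, 372 and 299 reads, and Nbr1, a receptor for ubiquitinated aggregates and peroxisomes, 18.9, 23.9 and 20.7 from 2243, 2840 and 2247. PS19 was 1.34-fold above WT for Optn (1.14 to 1.57) and 1.26-fold for Nbr1 (1.20 to 1.34). The call of Optn held under every scaling and correction tried, at 0.35 to 0.46 log2 units, and correction for GC content and length took Nbr1 from 0.32 to 0.26, under the threshold. Neither was called between PS19 Zbp1+/- and PS19 (0.878 and 0.864) under the settings as given, while TPM scaling called both lower there and scaling by total reads called Nbr1 lower.

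Tfeb (chromosome 17, 47737030 to 47792419, plus strand, GRCm38) had FPKM values of 2.33, 3.17 and 1.23 from 228, 311 and 110 reads. PS19 was the high library and PS19 Zbp1+/- the low one: PS19 was at 1.36 of WT (1.14 to 1.62), and PS19 Zbp1+/- at 0.386 of PS19 (0.308 to 0.482) and 0.526 of WT (0.415 to 0.663). Correction for GC content and length took the difference between PS19 and WT from 0.33 to 0.20, under the threshold. Both differences of PS19 Zbp1+/- stayed called under every setting tried on this gene, at -0.91 to -1.37 against PS19 and -0.58 to -1.0 against WT. The 616 genes tested on chromosome 17 had a median of 0.060 in PS19 Zbp1+/- against PS19. Beside Tfeb, the 8 oligodendrocyte markers had medians of 0.81 for PS19 minus WT, -1.40 for PS19 Zbp1+/- minus PS19 and -0.58 for PS19 Zbp1+/- minus WT, with 8 called higher, 8 called lower and 7 called lower in turn, and their part in the Tfeb values was not tested.

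Of the other transcription factors of autophagy and lysosome genes, 8 of 9 were expressed enough to compare. Between PS19 and WT 2 were called higher (25.0%, beside 14.8% of all genes) and none lower (beside 14.5%). Between PS19 Zbp1+/- and PS19 1 was called higher (12.5%, beside 24.2%) and 3 lower (37.5%, beside 22.7%). Nfe2l2, the oxidative stress factor NRF2 that also acts on Sqstm1, had FPKM values of 6.49, 9.55 and 2.15 from 425, 627 and 129 reads. Mitf, a close relative of TFEB, had 1.89, 2.49 and 1.20. Both shared the order of Tfeb, with PS19 high and PS19 Zbp1+/- low: their ratios of PS19 Zbp1+/- over PS19 were 0.225 (0.184 to 0.272) and 0.483 (0.385 to 0.602). Srebf2, the factor of sterol synthesis, had the opposite order at 31.3, 26.9 and 46.2 FPKM.

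The remaining lists of the pathway lay on both sides of the shares of all genes between PS19 and WT (14.8% higher and 14.5% lower). Of 31 genes of upstream control by mTORC1, AMPK and TSC 1 was called higher and 5 lower (16.1%), and of 11 other core genes 2 higher (18.2%) and 1 lower. Of 14 other receptors and mitophagy genes 1 was higher, of 18 genes of autophagosome fusion 2 and of 6 Beclin complex partners 1, and none in these 3 lists was lower. Their medians ran from -0.086 to 0.072 log2 units. Wdr45, a PI3P reader related to the Wipi genes, was among the lower genes at 6.69, 4.30 and 4.56 FPKM, and Fyco1, which links autophagosomes to kinesin, among the higher at 5.08, 7.84 and 6.06. Wdfy3, the scaffold ALFY of aggregate autophagy, had 11.2, 15.6 and 17.2 FPKM, with PS19 1.39-fold above WT (1.33 to 1.46).

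In PS19 Zbp1+/- against PS19 (24.2% higher and 22.7% lower of all genes) the same lists had 5 higher and 3 lower for upstream control, 1 and 0 for receptors and mitophagy, 5 and 2 for fusion, 1 and 4 (36.4%) for other core genes, and 0 and 0 for Beclin partners. Mtor, the kinase that holds the ULK1 complex in check, had FPKM values of 10.5, 12.0 and 18.1, with PS19 Zbp1+/- 1.51-fold above PS19 (1.43 to 1.60). Vamp8, a SNARE of autophagosome fusion, was called lower, with 254, 248 and 52 reads and PS19 Zbp1+/- at 0.229 of PS19 (0.166 to 0.310). Tmem41b, a scramblase of phagophore formation, was also called lower there, at 5.26, 5.56 and 3.57 FPKM.

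Sequence composition moved with the differences of the PS19 Zbp1+/- library. All genes tested were split by GC content into 5 groups of equal size. The median difference of PS19 Zbp1+/- minus PS19 was -0.14 in the lowest group and 0.25 in the highest, while that of PS19 minus WT was -0.036 and -0.068. Across the 36 members, the difference of PS19 Zbp1+/- minus PS19 followed the GC content of the transcript with Pearson's r at 0.35 and Spearman's rho at 0.56, and r was 0.22 and rho 0.28 across all 12757 genes with a known GC content. The 6 members in the highest group (Atg101, Atg2a, Atg9a, Map1lc3a, Tfeb and Ulk1) had a median of 0.53, and the 6 of the lowest (Atg10, Atg3, Atg4a, Atg4c, Rb1cc1 and Tax1bp1) of -0.26. Tfeb, with a GC content of 63.2%, was lower in PS19 Zbp1+/-, against the median of that group. For PS19 minus WT the members' differences went with gene length, with r 0.54 and rho 0.46 against 0.19 and 0.32 over all genes. They also fell with mean FPKM, with r -0.48 and rho -0.53 against -0.28 and -0.33, and no correction for level was made. These correlations run across genes that share the same libraries and are not independent replicates, and the part of GC content or length in any single difference was not tested beyond the correction given.

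**Figure D4:**
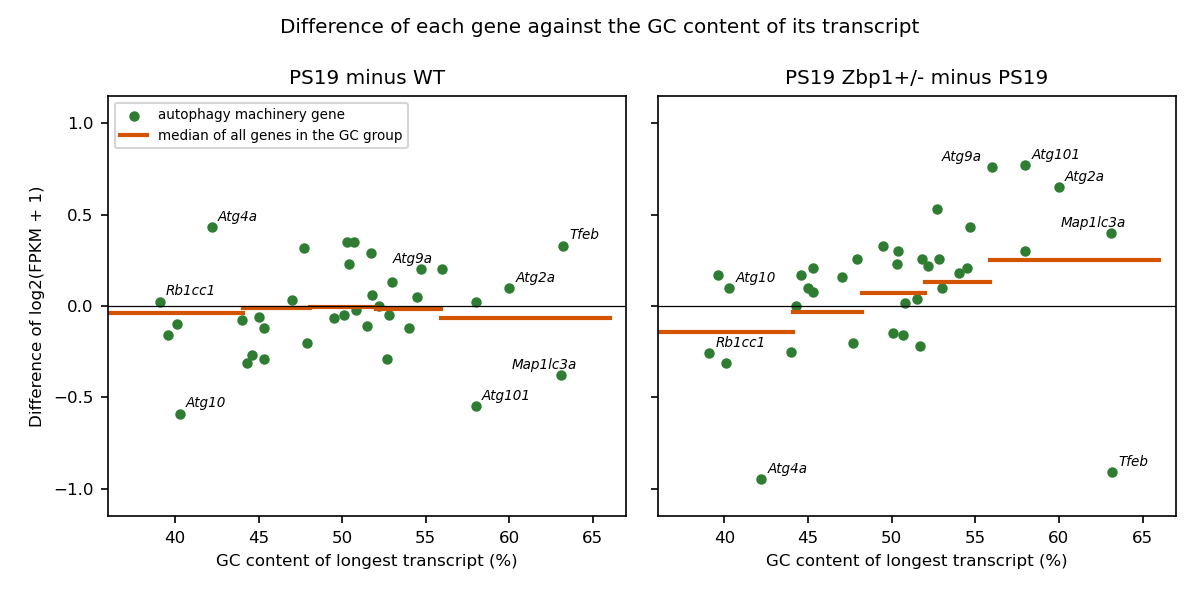
Difference of log2(FPKM + 1) of each of the 36 genes against the GC content of its longest transcript (percent), for PS19 minus WT (left) and PS19 Zbp1+/- minus PS19 (right). Orange lines are the medians of all genes tested in each of 5 groups by GC content, which run from -0.14 to 0.25 on the right. Tfeb (-0.91) and Atg4a (-0.95) lie far below the line of their group.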

How the data were processed

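RNA of the hippocampus was sequenced in 3 libraries, 1 per genotype. Per the labels' protocols, extraction used TRIzol, and the library kit was NEB Next Ultra RNA. The submitters' processing notes name Trim Galore 0.6.5, STAR 2.5.3a, featureCounts 2.0.4 and the build mm39, with no further settings. The authors deposited 1 table of FPKM values with gene positions and lengths. The unit comes from the table's name and values. Start and end equal those of GENCODE M21 (GRCm38), not mm39, for 98.3% of 54495 gene IDs and for 35 of the 36 members, Atg12 being the exception, and positions are given as in the table. FPKM times length was a whole multiple of 1 step (within 0.02) for 100% of values, which gave whole reads and implied library sizes of 17253479, 17287957 and 15826984 for WT, PS19 and PS19 Zbp1+/-. These differ from the read totals, so a scaling by the authors is already in the values.

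Protein-coding genes that reached an FPKM of 1 in 1 or both libraries were compared as log2(FPKM + 1), a scale that shrinks differences of low genes, with a call at 0.32 log2 units. All 36 members passed that filter in each comparison. No test of genotypes is possible with 1 library each, and no p-value is given. The members and lists were chosen with earlier results of these data known. All members are named, and of each other list up to 3 genes with the largest absolute difference in each comparison, with markers, sex chromosome genes, Zbp1 and Mapt. GC content is of the longest GENCODE M21 transcript. Copies were sought with BLAST 2.17.0 at 90% identity over 200 bases. Alternatives were pseudocounts of 0.1 and 0.5, other filters, thresholds of 1.5-fold and 2-fold, TPM scaling, scaling by total reads, centring, the mean, and leaving out the most different member. No pseudocount, and a correction for GC content and length (the median of all genes was taken off within each cell of 10 GC by 5 length bins and the overall median added back), were added after seeing the data. On simulated data for PS19 minus WT, reads were recovered exactly for 100% of 54532 genes. Called were 100% of 50 genes raised 1.5-fold, 98.0% of 50 lowered to 0.667 and 1.08% of 12197 unchanged genes. The changed genes were drawn from genes with more reads than Atg4a, Atg10, Tfeb and Optn, so their share called does not extend to such members. Only counting error was simulated, so the 1.08% leaves out differences between animals and between library preparations. The software was Python 3.11.15 with scipy 1.17.1, pandas 2.3.3, numpy 2.4.6 and, for figures, matplotlib 3.10.9.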

Additional observations from a re-analysis of the deposited data

How the results depend on the processing

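The members' median kept its sign under every pseudocount, filter and correction tried. It changed sign under TPM scaling in all 3 comparisons, to 0.090 for PS19 minus WT, -0.10 for PS19 Zbp1+/- minus PS19 and -0.068 for PS19 Zbp1+/- minus WT, and under scaling by total reads in the last 2, to -0.0081 and -0.066. The construction of these scalings moves all genes together, and less the median of all genes the members lay at 0.0057, 0.10 and 0.058 under TPM scaling. Among the counts, at 1.5-fold PS19 minus WT had 0 higher members (beside 6.34% of all genes) and 1 lower (2.71%). PS19 Zbp1+/- minus PS19 had 3 higher (9.37%), and PS19 Zbp1+/- minus WT 0 lower (7.12%). At 2-fold every count of members was 0 on the log2(FPKM + 1) scale. The read ratios of Atg4a (0.367) and Tfeb (0.386) over PS19 and of Atg9a over WT (2.06) passed 2-fold. With a mean FPKM of at least 5, which leaves 25 or 26 members, 2 were higher for PS19 minus WT (beside 10.3% of all genes). Lower were 0 for PS19 Zbp1+/- minus PS19 (14.5%) and 2 for PS19 Zbp1+/- minus WT (14.4%). TPM scaling gave 3 higher (beside 9.72% of all genes) and 9 lower (39.5%) for PS19 Zbp1+/- minus PS19. For PS19 Zbp1+/- minus WT it gave 8 lower (28.6%). Scaling by total reads gave 4 (13.8%), 7 (32.8%) and 8 (28.7%) in the same order. After correction for GC content and length, 2 members were higher for PS19 minus WT (beside 14.5% of all genes). For PS19 Zbp1+/- minus WT 2 were lower (15.8%), and of the 11 calls of the latter comparison 3 were kept. The cause was not tested. Among single members 1 called difference changed sign, that of Ulk1 in PS19 Zbp1+/- minus WT, at -0.017 after that correction. No paired analysis was possible because each genotype has 1 library. Counting error is widest for Atg4a and Atg10, whose libraries held 50 to 149 reads.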
